A study of Mus musculus with 16 samples.

Results

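The difference between 2 mouse CD8 T cell clones in their response to cyclosporine A was measured gene by gene. For each gene, the effect of the drug in the conventional clone was subtracted from its effect in the unconventional clone, over all 16 arrays of the series. A positive difference means that the gene fell less or rose more with the drug in the unconventional clone. The members were 19938 genes, each read from 1 probe set with a single gene symbol. They were split by level, with a log2 expression of 6 taken as the edge of background. A group mean over 6 in at least 1 group of each clone put 8615 genes above background in both clones. Another 1030 genes passed that level in 1 clone only, and 10293 in neither.

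Both clones were activated with an immobilized antibody to CD3, which belongs to the T cell receptor complex, in RPMI medium to which no recombinant cytokines were added. The groups were conventional with anti-CD3 alone, conventional with anti-CD3 and cyclosporine A (CSA) at 1 ug per ml, and the same pair for the unconventional clone, with 4 arrays each. The labels name the conventional cells cyclosporine-sensitive and the unconventional cells cyclosporine-resistant. Per the labels' protocols, the cells had been grown with IL-1a, IL-6, IL-7, IL-15, TNF-a and interferons. Each label is represented by 1 clone, so the clone and the type it stands for cannot be told apart. Unstimulated cells were not analysed here. The labels and protocols used give no strain, age or time of stimulation. They also do not say whether the 4 arrays of a group came from separate cultures, so a p-value here reflects the spread among these samples alone, and that spread may be technical.

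The T cell receptor raises calcium in the cell, which activates the phosphatase calcineurin. Calcineurin removes phosphates from NFAT transcription factors, which then enter the nucleus and, often with AP-1 factors, turn on cytokine genes. Cyclosporine A binds cyclophilin, and the complex blocks calcineurin, so the drug lowers cytokine genes in T cells while signals through protein kinase C, RAS and NF-kB reach the nucleus by other routes. In activated T cells the same signals also drive entry into the cell cycle.

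Arrays of a group correlated at 0.995 to 0.998 over all probe sets, no pair was identical, and array medians lay between 5.16 and 5.35. The CD8 co-receptor genes Cd8a and Cd8b1 and the CD3 chains were well above background in all groups, whereas the defining genes of other T cells (Cd4, Foxp3, Zbtb16) were not. Of 8 measured CD8 T cell markers 7 were above background in both clones. The exception was Cd2, at 3.73 to 4.41 on all 16 arrays. The mean of 5 markers of other T cells lay between 4.21 and 4.57 on every array. Means of 8 B cell markers lay between 4.05 and 4.62, of 16 macrophage and dendritic cell markers between 4.53 and 4.79, and of 9 erythroid and granulocyte markers between 4.17 and 4.45. A mean can hide single members: the macrophage marker Cd68 lay at 6.96 to 9.18 over the 16 arrays. Ppia, the cyclophilin that the drug binds, had a difference of effects of 0.05 (SE 0.08, adjusted p = 0.8092) and levels of 13.64 to 13.70 in all groups. The values are log2 expression, so a difference of 1 is a 2-fold change in measured signal.

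The largest pattern was a drug effect that was weaker in the unconventional clone, both for genes that fell and for genes that rose. The difference of effects was called (adjusted p under 0.05, limma) for 3247 genes, 16.3% of those tested. Higher values in the unconventional clone were called for 1696 (8.51%) and lower values for 1551 (7.78%). Among the genes above background in both clones, 2570 of 8615 (29.8%) were called, 1345 higher (15.6%) and 1225 lower (14.2%). The difference was at least 2-fold for 238 and 177 of these. Of 1030 genes near background in 1 clone, 379 were called (36.8%), and of 10293 near background in both, 298 (2.9%). For comparison, the drug's own effect was called for 31.4% of genes in the conventional and 24.9% in the unconventional clone. The clones differed from each other for 42% of genes without the drug and 44.2% with it.

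**Figure D1:**
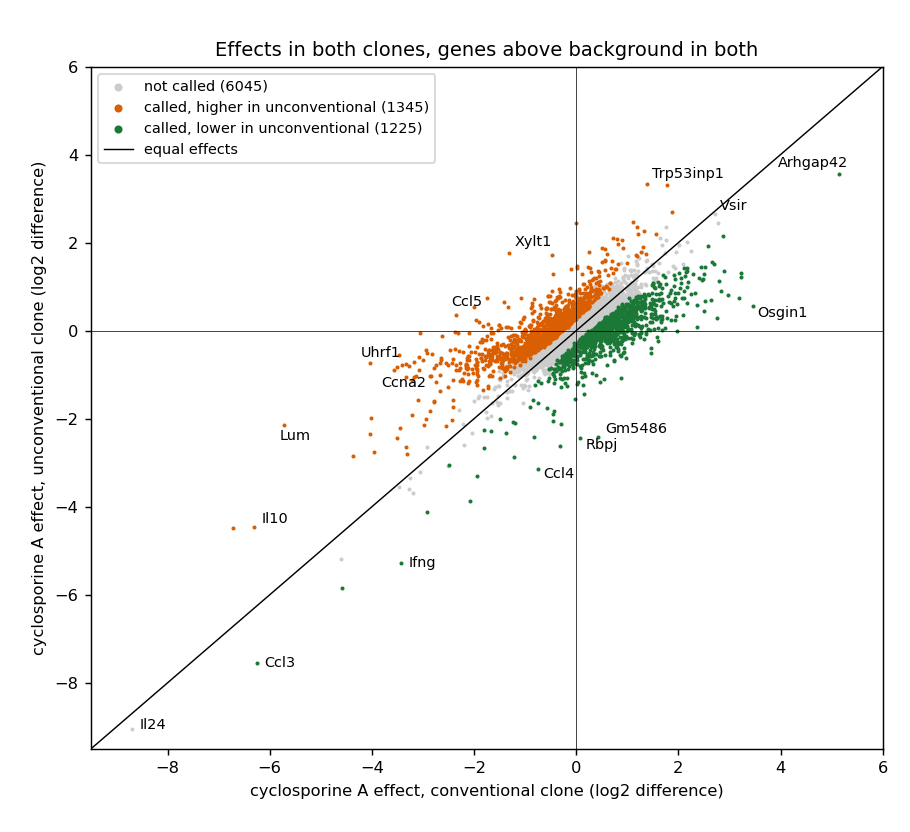
Change with cyclosporine A (log2) in the conventional clone on the x axis and in the unconventional clone on the y axis, for 8615 genes above background in both clones; each point is a gene, the line marks equal effects, and colours mark called differences. Of the 1345 orange points 989 are genes that fell in the conventional clone, and of the 1225 green points 983 are genes that rose there, while Ifng, Ccl3 and Ccl4 are green among the falls.

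Of these 2570 genes, 785 (30.5%) moved the same way in both and less in the unconventional clone, while 165 (6.4%) moved the same way and less in the conventional clone. In 993 (38.6%) the drug effect was called in the conventional clone only, in 384 (14.9%) in the unconventional clone only, and in 49 (1.9%) in neither. The remaining 194 (7.5%) moved in opposite directions. These classes follow from the same values as the difference itself and are a description. Among the 438 genes that fell in both and fell less in the unconventional clone, the median change was -1.22 in the conventional and -0.50 in the unconventional clone. Among the 347 that rose in both and rose less there, the medians were 1.10 and 0.46. Over all 8615 genes, the median size of the drug effect was 0.29 in the conventional and 0.22 in the unconventional clone. A change of at least 2-fold was called for 826 genes in the former and 346 in the latter.

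Among all called genes, the difference in response did not in general bring the clones together. The counts that follow are not limited to genes with the smaller effect in the unconventional clone. Under the drug the clones lay farther apart for 1818 of the 2570 genes and closer for 752 (29.3%). For 659 genes the clones were called different only with the drug, for 396 only without it, and for 212 they were called different in both states with opposite sign. In the conventional clone, 139 of the 2570 genes had a mean under 6 with the drug, and in the unconventional clone 38. For such genes the fall in that clone is a lower limit, since the level with the drug is at background. Genes described here that were under 6 with the drug in the conventional clone included Acpp, Ifi205, Ccne2, Ceacam1 and Irf1. Cell cycle genes such as Ccna2, Cdk1, Bub1, Aurkb and Ccnb2 were also under 6 there. In the unconventional clone they included Ccl3, Pdcd1, Lta and Gm5486. On the linear scale the difference had the opposite sign to the log2 difference for 180 of the 2570 (7.0%). Among them were Ifng, Ccl3, Ccl4 and Cd8a. Each fell by a larger fold in the unconventional clone but by a larger amount of signal in the conventional clone. The level of 6 is a choice: 159 genes had the value that placed them within 0.1 above it, of which 24 were called, and 172 within 0.1 below it, of which 32 were called.

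Counts of called list members, here and below, are to be read against 8.51% called higher and 7.78% called lower over all genes. Among genes above background in both clones these shares were 15.6% and 14.2%, so a list with calls near them does not stand out. Of the 24 pathway lists, mitosis and DNA replication had the largest shares of genes called higher. Cyclosporine A lowered nearly all of them in both clones, and in most cases by far more in the conventional clone. Of 39 measured mitosis genes, 27 had a called difference above 0 and 0 below, against 8.51% and 7.78% of all genes, with a median of 1.03 against 0.00. Of the 35 above background in both clones, 26 were called higher and 0 lower, against 15.6% and 14.2% of such genes. In the conventional clone 38 of the 39 fell (median -1.73), and in the unconventional clone 33 (median -0.73). The DNA replication list had 30 of 43 genes called higher and 2 lower, with a median of 0.79. There 40 fell and 2 rose in the conventional clone (median -1.42), and 39 fell and 0 rose in the unconventional clone (median -0.52). In RNA of whole cultures, fewer cells in cycle and less RNA per cell cannot be told apart.

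Ccna2, the cyclin of S phase and entry into mitosis, stood in the conventional clone at 8.52, 8.53, 8.56 and 8.25 on the 4 arrays without the drug and at 5.30, 4.81, 4.48 and 5.24 with it. Unconventional arrays gave 10.58, 10.38, 10.64 and 10.46 without and 9.53, 9.50, 10.15 and 9.58 with it. The drug left the conventional clone under the level of 6 and the unconventional clone well above it, and in neither clone did the arrays with and without the drug overlap. The changes were -3.51 and -0.82, a difference of 2.69 (SE 0.22, adjusted p = 4.4e-08). Nuf2, a kinetochore subunit that holds spindle microtubules, went from 7.93, 7.55, 7.92 and 7.63 to 4.90, 4.34, 4.74 and 4.76 in the conventional clone. On the unconventional arrays Nuf2 read 9.21, 9.63, 9.78 and 9.72 without and 8.68, 8.80, 9.40 and 9.02 with the drug. Its difference was 2.46 (SE 0.22, adjusted p = 1.0e-07), and the unconventional arrays with and without the drug overlapped while the conventional arrays did not.

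The mitotic kinases moved in the same manner. Ttk, a kinase of the spindle checkpoint, changed by -3.13 in the conventional and -1.03 in the unconventional clone, a difference of 2.10 (SE 0.19, adjusted p = 1.6e-07). For the checkpoint kinase Bub1 the changes were -2.75 and -0.79, and for Cdk1, the kinase that drives entry into mitosis, -2.85 and -1.02. Plk1 and Aurkb, kinases of spindle assembly and division, had differences of 1.82 and 1.36. The division genes Prc1 and Ccnb2 fell in the conventional clone (-1.51 and -1.64), while their changes of 0.13 and -0.06 in the unconventional clone were not called. No call of a difference was made for 12 mitosis genes, among them the survivin gene Birc5 at 0.06, the transcription factor Foxm1 at 0.06 and Mki67, which encodes the Ki-67 antigen, at 0.72 (adjusted p = 0.0510). Under the drug Birc5 (4.98, 4.62, 5.44 and 5.00) and Foxm1 (5.63, 5.54, 5.28 and 5.43) were under 6 in the conventional clone. Those falls are lower limits, so the small differences of Birc5 and Foxm1 do not show equal effects.

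In the DNA replication list the order was led by Uhrf1, which recruits the maintenance DNA methyltransferase to new DNA. It stood at 9.42, 9.63, 9.75 and 9.53 without and 6.28, 6.38, 6.27 and 6.07 with the drug in the conventional clone. The unconventional arrays gave 10.30, 10.44, 10.38 and 10.54 and 9.48, 9.50, 9.85 and 9.79, so both clones fell without overlap of the arrays, the unconventional clone far less. Its difference was 2.58 (SE 0.14, adjusted p = 1.4e-10). Mcm7, a subunit of the replicative helicase, changed by -2.93 and -0.52, a difference of 2.41 (SE 0.14, adjusted p = 2.9e-10). The helicase subunits Mcm2 to Mcm6 had differences from 0.86 (Mcm6) to 1.83 (Mcm3). Cdc6, which loads the helicase, and Pole, the leading strand polymerase, had differences of 1.98 and 1.93. Pclaf, a partner of the sliding clamp that was on no list, fell by 3.46 in the conventional and by 0.55 in the unconventional clone, and its second probe set, with a mean level of 8.54, gave a difference of 3.58 against 2.91.

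The exceptions within the replication list were as clear. The sliding clamp gene Pcna (0.20), the ligase Lig1 (-0.04), the thymidine kinase Tk1 (0.07) and Fen1 (0.18), which trims flaps of lagging strands, had no called difference. Prim2, the large primase subunit, rose in the conventional clone (1.08) and fell in the unconventional clone (-0.29), a difference of -1.37 (SE 0.14, adjusted p = 4.7e-07), against 1.17 for its partner Prim1. Gins3 was the other called on the low side (-0.41).

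**Figure D2:**
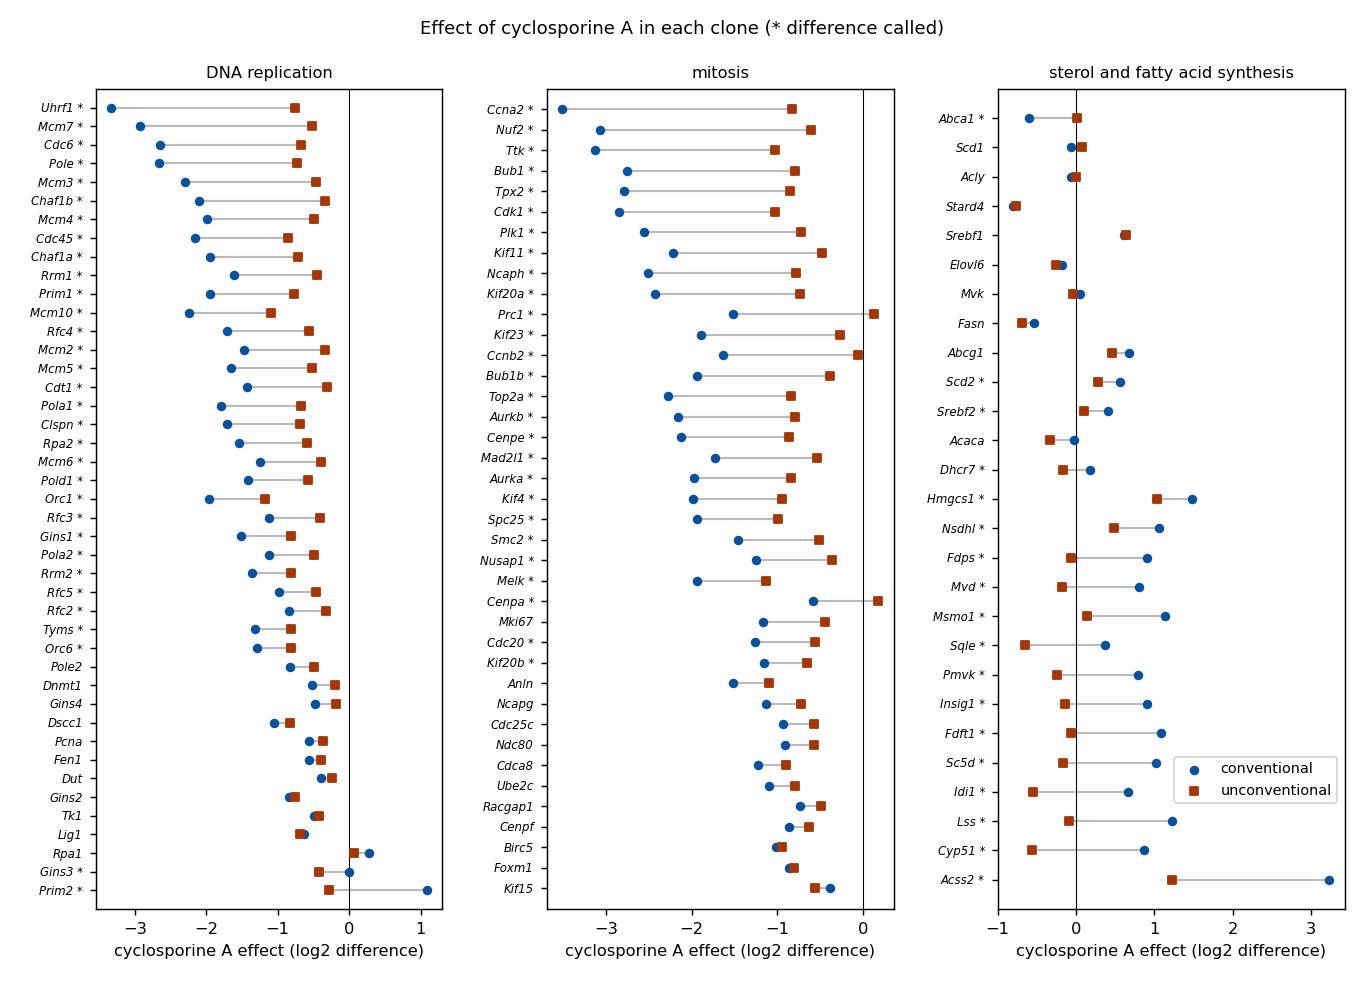
Change with cyclosporine A (log2, x axis) of each measured gene of 3 lists, in the conventional clone (circles) and the unconventional clone (squares); an asterisk marks a called difference. In the DNA replication and mitosis panels the circles lie left of the squares for 39 of 43 and 38 of 39 genes, and in the sterol and fatty acid panel most circles lie right of the squares.

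The 2 clones also differed in these genes before the drug was added. All 39 mitosis genes and all 43 replication genes were called higher in the unconventional clone with anti-CD3 alone, with median differences of 1.82 and 1.41. With the drug the medians were 2.93 and 2.28. Of the 35 mitosis genes above background in both clones, 27 had a conventional mean under 6 with the drug, so their fall in that clone is a lower limit, and so is the difference of effects. In the replication list this held for 9 of 42.

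Promoter sequences were set beside these lists because the cell cycle genes moved together. Replication genes are known targets of E2F factors, which bind letters such as GCGGGAA, and mitosis genes of the DREAM and MuvB complexes, which bind the CHR element TTTGAA. RefSeq promoters (build GRCm38.p6), from 250 bases before to 50 after a start site, were searched on both strands, and none of the motifs overlapped another in the promoters shown. TTTGAA was found in 26 of 34 promoters (76.5%) of 33 matched mitosis genes, against 14.8% of promoters of all genes tested, and GCGGGAA in 1 of the 34 (2.9%). Of 42 promoters of 35 matched replication genes, 16 held GCGGGAA (38.1%), against 6.4% over all genes tested, and 5 held TTTGAA (11.9%). Over the wider set of genes above background in both clones, TTTGAA was in 14.5% of promoters of genes called higher, 10.2% of those called lower and 11.3% of the rest. GCGGGAA was in 9.8%, 9.0% and 8.5%. Nuf2 and Bub1 held neither in this window. Only promoters with a match are shown, so they do not show how common the letters are. They are those of Cdk1 and Ttk from the mitosis list and of Uhrf1 and Mcm7 from the replication list. The last pair was chosen for holding GCGGGAA after the shares were seen. Sequences run 5′ to 3′ on the strand of the gene, with the matched letters in capitals.
Cdk1, chr10:69352863-69353162, minus strand: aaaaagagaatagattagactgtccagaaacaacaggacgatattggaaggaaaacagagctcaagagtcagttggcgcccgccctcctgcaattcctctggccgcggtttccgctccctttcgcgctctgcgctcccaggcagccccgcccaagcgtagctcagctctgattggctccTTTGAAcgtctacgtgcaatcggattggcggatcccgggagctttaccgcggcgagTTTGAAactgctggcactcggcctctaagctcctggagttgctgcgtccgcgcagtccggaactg
Ttk, chr9:83834439-83834738, plus strand: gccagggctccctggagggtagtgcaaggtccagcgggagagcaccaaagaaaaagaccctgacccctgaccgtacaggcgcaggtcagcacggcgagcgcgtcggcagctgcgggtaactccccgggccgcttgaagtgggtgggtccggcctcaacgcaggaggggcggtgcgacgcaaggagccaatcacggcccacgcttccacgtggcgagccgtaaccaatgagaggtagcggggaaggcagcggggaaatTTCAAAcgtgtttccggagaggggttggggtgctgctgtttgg
Uhrf1, chr17:56303087-56303386, plus strand: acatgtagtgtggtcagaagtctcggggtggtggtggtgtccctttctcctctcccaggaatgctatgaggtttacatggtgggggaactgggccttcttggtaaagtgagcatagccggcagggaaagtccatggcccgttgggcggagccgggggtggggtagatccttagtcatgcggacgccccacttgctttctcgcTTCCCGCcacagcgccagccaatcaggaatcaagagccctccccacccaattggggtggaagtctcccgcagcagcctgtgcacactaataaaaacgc
Mcm7, chr5:138171834-138172133, minus strand: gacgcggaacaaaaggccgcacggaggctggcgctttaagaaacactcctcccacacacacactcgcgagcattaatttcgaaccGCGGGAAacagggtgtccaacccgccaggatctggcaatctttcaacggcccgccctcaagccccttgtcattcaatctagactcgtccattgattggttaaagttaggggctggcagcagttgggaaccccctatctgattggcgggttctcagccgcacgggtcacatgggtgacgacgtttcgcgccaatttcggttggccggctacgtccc
Positions are counted from the start site, with 1 as its first base and -1 as the base before it. The Cdk1 promoter held TTTGAA from positions -71 and -15, both in the direction of the gene. In Ttk the match read TTCAAA, that is, it lay on the other strand, from position 8. Uhrf1 held the E2F letters on the other strand, as TTCCCGC from position -48, and Mcm7 held them in the direction of the gene from position -165. The matches are a description of these letters and no measure of binding.

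Among cyclins, cyclin-dependent kinases, their inhibitors and E2F factors, the picture was mixed. The list had 10 of 31 genes called higher and 4 lower, with a median of 0.24. Ccne2, a cyclin of the step into S phase, changed by -3.57 and -0.89, a difference of 2.67 (SE 0.23, adjusted p = 9.1e-08), whereas its paralog Ccne1 (0.24) and the D cyclins Ccnd2 (0.04) and Ccnd3 (0.18) had no call and Ccnd1, near background in the conventional clone, was called lower. Cdkn2b, which encodes the CDK4 and CDK6 inhibitor p15, was at 5.96, 6.27, 6.34 and 6.08 and 6.31, 5.69, 6.51 and 6.15 in the conventional clone without and with the drug. The unconventional clone had 6.76, 6.98, 6.66 and 6.88 and 9.48, 9.52, 8.89 and 9.21, a rise on all 4 arrays with no overlap. The difference was 2.46 (SE 0.22, adjusted p = 9.8e-08). Its neighbour Cdkn2a, another inhibitor locus, and Rbl2, a pocket protein of resting cells, fell in the conventional clone (-0.52 and -1.05) and rose in the unconventional clone (0.65 and 0.27). Genes of opposite roles in the cycle were thus both on the higher side.

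Myc, a transcription factor of growth, fell by 1.17 in the conventional and by 0.39 in the unconventional clone, a difference of 0.78 (SE 0.09, adjusted p = 1.9e-06). Its list, with genes of ribosome biogenesis, had 10 of 28 genes called higher and 0 lower, with a median of 0.28. Fbl, the rRNA methyltransferase fibrillarin, fell in the conventional clone (-0.95) and had no called change in the unconventional clone (-0.11). Mxd4, an antagonist of Myc, rose in both clones and by more in the unconventional clone (0.79 against 2.08). The hypoxia factor Hif1a (0.55) and the glucose transporter Slc2a3 (0.44) were the 2 genes called higher among 21 of glycolysis and hypoxia, and Vegfa (-0.59) the one called lower.

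Sterol synthesis genes rose with the drug in the conventional clone and, as a rule, not in the unconventional clone. Of 27 measured genes of sterol and fatty acid synthesis, 17 had a called difference below 0 and 1 above, with a median of -0.44. In the conventional clone 19 rose and 3 fell (median 0.67), and in the unconventional clone 6 rose and 6 fell (median -0.06). Cyp51, the lanosterol demethylase, was at 9.62, 9.34, 9.07 and 9.35 in conventional cells without and 10.17, 10.44, 9.98 and 10.26 with the drug. Unconventional cells had 9.42, 9.49, 9.40 and 9.47 and 8.78, 8.90, 8.80 and 9.06, so the gene moved up in one clone and down in the other, without overlap of the arrays in either. Its difference was -1.43 (SE 0.15, adjusted p = 8.8e-07). Idi1 and Sqle, the enzymes of isopentenyl isomerisation and squalene oxidation, also rose in the former (0.67 and 0.37) and fell in the latter (-0.55 and -0.65).

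The lanosterol synthase Lss rose by 1.22 in the conventional clone, the squalene synthase Fdft1 by 1.09 and the farnesyl diphosphate synthase Fdps by 0.91, and none was called in the unconventional clone (-0.09, -0.06 and -0.06). Hmgcs1, at the head of the pathway, rose in both (1.48 and 1.04). Acss2, which makes acetyl-CoA from acetate, led the list at 3.23 against 1.23, a difference of -2.0 (SE 0.17, adjusted p = 7.7e-08). The factor Srebf2, which turns on sterol genes, had a small difference of -0.30, and the fatty acid enzymes Fasn (-0.15), Acaca (-0.31) and Acly (0.07) had no call. Abca1, a cholesterol exporter and the gene called higher (0.62), was near background in both clones. Without the drug 9 of the 27 genes were called higher and 6 lower in the unconventional clone, and with it 1 higher and 20 lower.

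The response to unfolded protein and amino acid stress was on the low side as well, with 12 of 23 genes called lower and 0 higher (median -0.38). Trib3, a pseudokinase induced by ATF4, rose by 1.58 in the conventional clone and was not called in the unconventional clone (-0.15), a difference of -1.73 (SE 0.23, adjusted p = 1.6e-05). For Ddit3, which encodes the stress factor CHOP, the changes were 1.12 and -0.10, and for Atf5 1.00 and 0.11. Atf4 and the chaperones Hspa5 and Hsp90b1 rose slightly in the conventional clone (0.30, 0.25 and 0.38) and fell slightly in the unconventional clone (-0.27, -0.18 and -0.22). Xbp1 (-0.12) and Asns (-0.28) had no called difference.

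The effector cytokines were called in both directions. Most fell in both clones, and on the log2 scale Ifng fell further in the clone labelled resistant. Of 23 measured cytokines, 6 were called higher and 4 lower (median -0.07), and 14 fell in the conventional and 13 in the unconventional clone, against 2 rises in each. Only 8 of the 23 were above background in both clones. Of these 8, 4 were called higher and 1 lower, against 15.6% and 14.2% of such genes.

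Ifng, the interferon of cytotoxic T cells, had levels of 14.01, 13.99, 13.99 and 13.95 in the conventional clone without and 10.55, 10.69, 10.44 and 10.52 with the drug. The unconventional levels were 13.09, 13.21, 13.23 and 13.32 and 7.47, 8.05, 8.03 and 8.19. Both clones started high and both fell on every array, the unconventional clone by the larger fold, with a difference of -1.85 (SE 0.16, adjusted p = 5.9e-08). On the linear scale the fall was larger in the conventional clone. Il10, which restrains inflammation, ran the other way. Its conventional arrays read 12.95, 12.89, 12.87 and 13.12 without and 6.43, 6.37, 6.38 and 7.40 with the drug, and its unconventional arrays 12.23, 12.54, 12.52 and 12.61 and 8.02, 7.56, 8.02 and 8.42. The unconventional clone kept more Il10 under the drug, and the difference was 1.84 (SE 0.27, adjusted p = 4.6e-05).

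Il24, a relative of Il10, fell in both clones, from 12.84 ± 0.06 to 4.14 ± 0.26 and from 13.18 ± 0.16 to 4.13 ± 0.17 (SD, n = 4). Both ended at background, so that both falls are lower limits, and the difference of -0.34 (SE 0.16, adjusted p = 0.1786) was not called. Among the others, Lta, a TNF family cytokine, and Il1a had differences of 1.21 and 1.53. Both started lower in the unconventional clone and ended there under the level of 6 (5.39 and 3.74), and Il1a ended under it in the conventional clone too, so these falls are lower limits and do not show which clone fell further. Osm (-0.08) had no called difference. Tnf fell by 0.95 and by 1.34, a difference of -0.39 (SE 0.15, adjusted p = 0.0871) that was not called, and without replicate 1 of unconventional anti-CD3 it was -0.53 and called (adjusted p = 7.5e-04). Il2, the T cell growth factor, was near background in the conventional clone, and its difference of -0.68 (SE 0.25, adjusted p = 0.0759) became -0.90 and called without the same array (adjusted p = 0.0025).

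The chemokine genes were also called in both directions, with 3 of 16 called higher and 3 lower and a median of 0.06. Of the 8 above background in both clones, 1 was called higher and 3 lower, against 15.6% and 14.2% of such genes. Ccl4, which attracts leukocytes, was at 12.57, 12.41, 12.54 and 12.69 and 11.78, 11.51, 11.72 and 12.20 in the conventional clone without and with the drug. It was at 9.80, 10.25, 10.35 and 10.36 and 6.31, 7.15, 7.33 and 7.42 in the unconventional clone. Both clones fell without overlap of the arrays, the unconventional clone by a much larger fold, a difference of -2.38 (SE 0.27, adjusted p = 2.4e-06). Ccl3, encoded beside Ccl4, fell far in both clones (-6.25 and -7.55), a difference of -1.29 (SE 0.30, adjusted p = 0.0039), with the unconventional clone at 5.48 under the drug, below the level of 6.

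Ccl5, a chemokine of memory and effector T cells, showed the opposite of Ccl4. It stood at 11.77, 11.36, 11.70 and 11.93 without and 9.25, 8.66, 9.39 and 10.06 with the drug in the conventional clone. The unconventional arrays gave 11.46, 11.58, 11.49 and 11.60 and 11.94, 11.88, 11.90 and 11.87, where the arrays with the drug were the higher ones. The difference was 2.71 (SE 0.26, adjusted p = 3.1e-07), and the change of 0.36 in the unconventional clone was not called although its arrays did not overlap. Cxcl2, a ligand of CXCR2 that attracts neutrophils, changed by -1.94 in the conventional and -3.29 in the unconventional clone, a difference of -1.35. Both clones were under 6 with the drug, so both falls are lower limits. Its relative Cxcl3 had no called difference (-0.09, 95% interval -0.58 to 0.39). The conventional clone was under 6 for Cxcl3 with the drug, so that fall is a lower limit and the interval does not bound the difference. Of 10 TNF family ligands, 3 were called higher and 0 lower, among them Tnfsf9, which encodes the 4-1BB ligand (0.90). Xcl1, which attracts cross-presenting dendritic cells, fell in both (-4.61 and -5.18) and was not called for a difference.

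**Figure D3:**
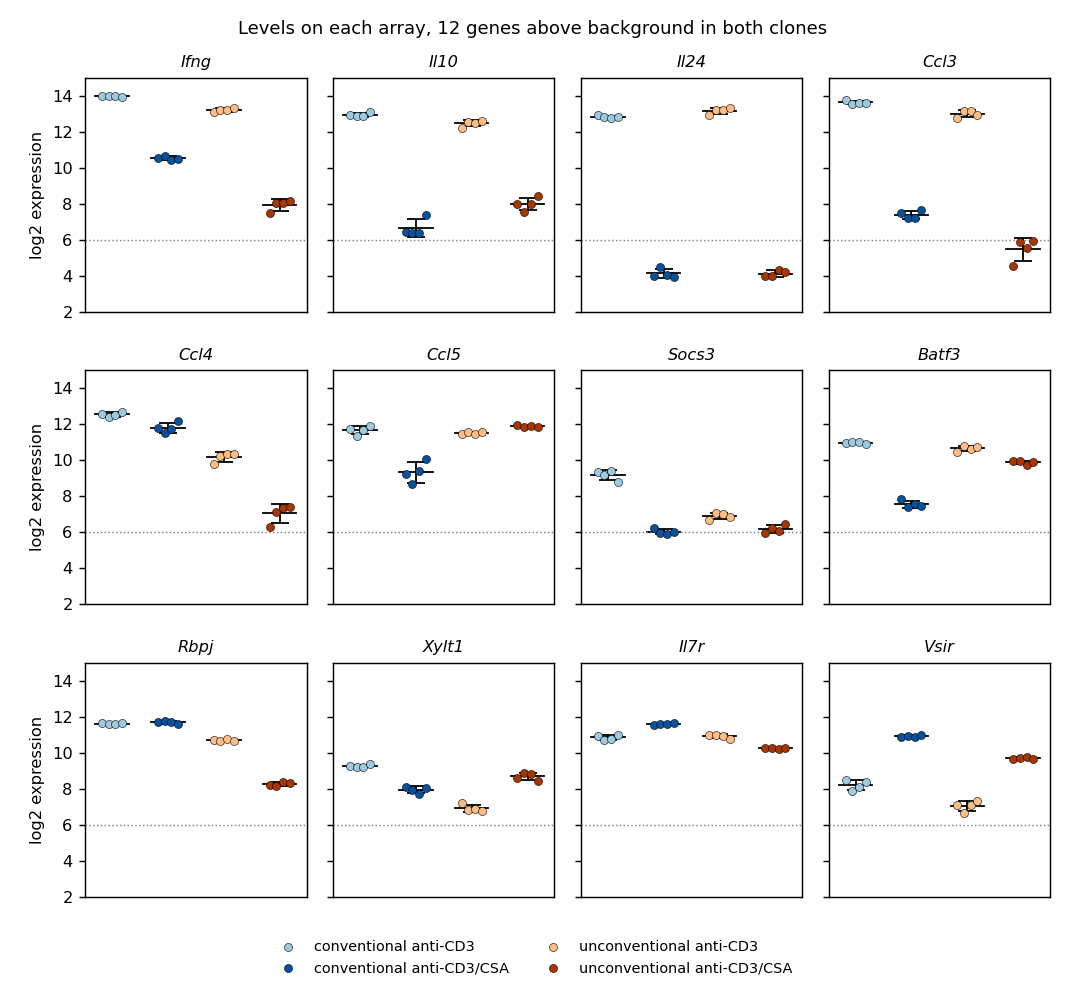
Log2 expression (y axis) on each of the 16 arrays for 12 genes above background in both clones; points are arrays, the wide line is the group mean, the short lines mark 1 SD either side, and the dotted line is the level of 6. Ifng, Ccl3 and Ccl4 end lower in the unconventional clone with the drug, Il10, Ccl5 and Batf3 end higher there, Il24 ends at background in both, and Xylt1 and Il7r move in opposite directions.

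Genes of the T cell receptor pathway tended to rise more in the conventional clone. Of 35 measured, 16 had a called difference below 0 and 5 above, with a median of -0.39, and in the conventional clone 19 rose and 7 fell. Fyn, a kinase that starts the receptor signal, rose by 1.76 against 0.44, a difference of -1.32 (SE 0.12, adjusted p = 1.4e-07). The kinase Zap70 (1.07 and 0.68), the phospholipase Plcg1 (0.99 and 0.35) and the RAS activator Rasgrp1 (1.06 and 0.02) followed it, the last with no call in the unconventional clone. The co-receptor chain Cd8a fell in both clones, by 0.58 in the conventional and by 1.75 in the unconventional clone, a difference of -1.17 (SE 0.11, adjusted p = 3.5e-07), while its partner Cd8b1 had no called difference (0.03). On the higher side were Themis, a regulator of the signal in thymocytes (-0.32 and 0.88), the phosphatase Ptpn6 (-0.40 and 0.36) and Malt1, which links the receptor to NF-kB (-0.91 and 0.10). Ubash3b, Lcp2 and Prkcq were also called, and the unconventional clone was near background for all of them.

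Few genes of the calcineurin and NFAT pathway itself differed. Of 31 measured genes, 2 were called higher and 1 lower, against 16.3% of all genes called in either direction, with a median of -0.04. The calls were all among the 27 members above background in both clones, and of such genes 29.8% were called. Nfatc2, an NFAT factor, rose in the conventional clone from 7.23, 7.14, 7.22 and 7.12 to 8.47, 8.70, 8.62 and 8.42. In the unconventional clone it stood at 7.69, 7.21, 7.29 and 7.13 without and 7.22, 7.29, 7.50 and 7.16 with the drug, where the arrays overlapped. Its difference was -1.41 (SE 0.15, adjusted p = 8.9e-07). The other calls were Ppid, a cyclophilin, at 0.56, and Fkbp1a, the target of tacrolimus, at 0.35, which lost its call when each array was centred on its median (0.30, adjusted p = 0.1147). The list had 5 calls without replicate 1 of unconventional anti-CD3. Nfatc1 (-0.04, 95% interval -0.28 to 0.20), the catalytic subunits Ppp3ca (-0.37) and Ppp3cb (-0.15) and the calcineurin regulator Rcan1 (0.25), near background in the unconventional clone, had no call.

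Among activation and inhibitory receptors, 7 of 23 genes were called in each direction. Cd44, the hyaluronan receptor of activated T cells, was at 7.07, 7.08, 6.89 and 6.65 and 6.38, 6.84, 6.42 and 6.13 in the conventional clone without and with the drug, a small fall with overlapping ranges. It rose from 5.99, 6.84, 6.69 and 6.53 to 8.03, 8.50, 8.32 and 8.10 in the unconventional clone, a difference of 2.20 (SE 0.23, adjusted p = 1.0e-06). Ctla4, an inhibitory receptor, fell in both and less in the unconventional clone (-4.01 and -1.99). Its arrays read 11.92, 10.77, 11.42 and 12.27 in conventional cells without the drug, a wide spread that still lay above the 7.96, 6.97, 7.34 and 8.07 with it. Pdcd1, which encodes PD-1, rose in the conventional clone (0.88) and fell in the unconventional clone (-0.58). Tnfrsf18, which encodes the costimulator GITR, fell in the unconventional clone (-1.44) with no call in the conventional clone (0.15), and Entpd1, which encodes the ectonucleotidase CD39, rose there (1.40, against -0.11 with no call).

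Receptors of cytokines and their feedback inhibitors had 7 of 24 genes called higher and 6 lower. Of the 19 above background in both clones, 7 were called higher and 5 lower, against 15.6% and 14.2% of such genes. Socs3, an inhibitor of receptors that signal through gp130, stood at 9.37, 9.18, 9.43 and 8.81 without and 6.22, 5.97, 5.89 and 6.01 with the drug in the conventional clone. In the unconventional clone it stood at 6.66, 7.06, 7.04 and 6.88 and 5.98, 6.22, 6.06 and 6.49. The clones differed without the drug and met at the edge of background with it, and the difference was 2.45 (SE 0.19, adjusted p = 1.4e-08). A second, dimmer probe set of Socs3 gave 0.83. Il6st, which encodes gp130, and Il12rb2, a chain of the IL-12 receptor, fell in the conventional clone (-1.53 and -1.75) and were not called in the unconventional clone (0.02 and -0.13). Cish, an inhibitor of IL-2 signals, fell in both and by the larger fold in the unconventional clone (-1.24 and -2.07).

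Transcription factors of T cell fate had 10 of 26 genes called higher and 4 lower, with a median of 0.14. Prdm1, which encodes BLIMP-1, was at 9.37, 9.23, 9.34 and 9.54 and 8.94, 8.80, 8.77 and 8.89 in the conventional clone without and with the drug. It was at 8.59, 8.49, 8.49 and 8.45 and 9.23, 9.17, 9.30 and 9.44 in the unconventional clone, so it fell in one and rose in the other. The difference was 1.30 (SE 0.11, adjusted p = 5.0e-08). Tbx21, which encodes T-bet and acts on Ifng, did the same (-0.69 and 0.51), as did the lymphoid factor Ikzf3 (-0.83 and 0.72). Gata3, the factor of type 2 cytokines, went the opposite way, with 0.94 in the conventional and -0.47 in the unconventional clone. Bcl6, a repressor that opposes Prdm1, rose in both and more in the conventional clone (2.29 and 1.29), and Lef1, a factor of resting T cells, fell in both and more in the conventional clone (-1.61 and -0.49).

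The AP-1 and IRF4 list had 5 of 16 genes called in each direction. Batf3, a partner of JUN proteins, fell in the conventional clone from 10.95, 11.01, 11.04 and 10.90 to 7.83, 7.40, 7.55 and 7.45. In the unconventional clone it read 10.44, 10.79, 10.65 and 10.77 without and 9.94, 9.94, 9.77 and 9.89 with the drug, a small fall with no overlap. The difference was 2.64 (SE 0.13, adjusted p = 6.2e-11). Atf3 and Junb also fell less there (0.93 and 0.73), while Irf8 and Maff fell more (-0.63 and -0.77). Irf4 (-0.23) and Batf (0.14) had no call. Of 11 EGR, NR4A and TOX factors, 0 were called higher and 2 lower, Egr2 (-0.56, near background in the unconventional clone) and Nab1 (-0.36). The call of Nab1, and with it 1 of the 2, was lost under quantile normalization (adjusted p = 0.0703) and without any one of 4 arrays, replicate 3 of conventional anti-CD3, replicate 4 of conventional anti-CD3/CSA, and replicates 2 and 4 of unconventional anti-CD3/CSA (adjusted p 0.0526 to 0.0616). Nr4a1 (0.24) and Nr4a3 (0.26) were not called. Genes of the NF-kB pathway, 6 of 18 called higher and 4 lower, included the inhibitors Nfkbia and Tnfaip3, which fell less in the unconventional clone (0.68 and 0.74).

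Cytotoxic granule genes were called in both directions. Of 23 genes, 5 were called higher and 5 lower, a larger share than the 29.8% of genes above background in both clones, and 1 of them differed at least 2-fold. That gene was Prf1, which encodes perforin: the conventional clone had 13.27, 13.21, 13.12 and 13.16 without and 13.39, 13.37, 13.29 and 13.31 with the drug, and the unconventional clone 12.43, 12.64, 12.57 and 12.56 and 11.36, 11.58, 11.62 and 11.82. It fell in the unconventional clone without overlap and had no called change in the conventional clone, a difference of -1.11 (SE 0.12, adjusted p = 8.6e-07). Gzmb, which encodes granzyme B, fell in the conventional clone only (-0.61 against -0.11, difference 0.50), and Gzma had no called difference (-0.17). Of the NK cell receptors, 2 of 18 were called higher and 3 lower, against 8.51% and 7.78% of all genes. Klrk1, which encodes NKG2D, fell from 9.57, 9.36, 9.06 and 9.42 to 7.57, 8.0, 7.25 and 7.68 in the conventional clone. It stayed at 10.63, 10.78, 10.89 and 10.56 and 10.98, 10.88, 10.80 and 10.77 in the unconventional clone, where the ranges overlapped, and the difference was 1.87 (SE 0.18, adjusted p = 3.4e-07).

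Genes of trafficking and adhesion had 5 of 24 called higher and 9 lower. Of the 10 above background in both clones, 2 were called higher and 5 lower, against 15.6% and 14.2% of such genes. Cxcr3, the receptor of interferon-induced chemokines, rose by 2.10 in the conventional clone and by 0.35 in the unconventional clone, where its level was at the edge of background. Ccr7, which guides T cells to lymph nodes, and Ccr4 fell in both clones and less in the unconventional clone, with differences of 1.53 and 1.29. The naive and quiescence list, which shares Ccr7, Lef1, Satb1 and Il7r with other lists, had 7 of 18 called higher and 4 lower. Btg2 and Tob1, which slow proliferation, rose in both clones and by more in the unconventional clone (1.29 and 0.83). Interferon-stimulated genes had 7 of 24 called higher and 3 lower, but only 10 of the 24 were above background in both clones. Irf1 and Irf9, which carry interferon signals, had differences of 2.07 and 1.15, and the dimmer probe set of Irf1, with a mean level of 4.91, gave 0.23.

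Survival genes of the BCL2 family moved unequally. Among 23 genes with p53 targets, 4 were called higher and 4 lower. Bcl2 fell far in the unconventional clone, from 8.76, 8.58, 8.89 and 9.20 to 6.78, 6.93, 6.79 and 6.73. In the conventional clone it had 9.44, 8.84, 8.98 and 9.66 without and 8.61, 9.01, 8.75 and 8.72 with the drug, a smaller fall with overlapping ranges. The difference was -1.59 (SE 0.21, adjusted p = 1.7e-05). Its relative Bcl2l1, which encodes BCL-XL, fell in both and further in the conventional clone (-2.97 and -2.14), and Mcl1 had no called difference (-0.23). Gadd45g, a stress gene, fell in the unconventional clone (-2.63 against -0.33, difference -2.30), and Trp53inp1, a p53 target, rose in both and further there (1.39 and 3.32).

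**Figure D4:**
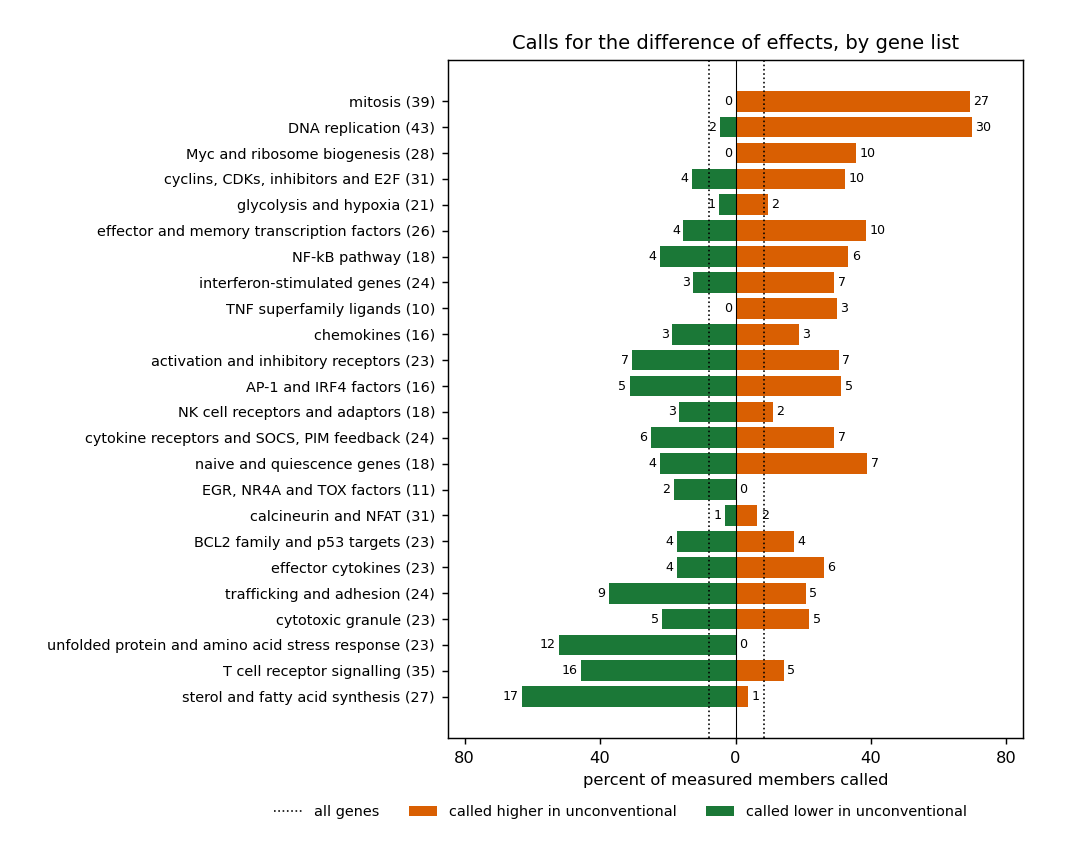
Percent of measured members of each of 24 gene lists with a called difference of effects, higher in the unconventional clone to the right and lower to the left; the number of calls stands at each bar, the number measured in brackets, and the dotted lines mark the share over all 19938 genes (8.51% and 7.78%). Mitosis and DNA replication reach farthest right with 27 of 39 and 30 of 43, and sterol and fatty acid synthesis farthest left with 17 of 27.

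By size alone, the largest positive differences among genes above background in both clones were in Lum, Acpp, Xylt1, Ifi205 and Pclaf. Lum, which encodes the matrix proteoglycan lumican, was at 10.24, 9.86, 9.65 and 9.72 and 4.42, 4.43, 3.88 and 3.89 in the conventional clone without and with the drug. It was at 6.2, 6.44, 5.87 and 6.05 and 3.96, 3.80, 4.08 and 4.16 in the unconventional clone. Both clones ended at background and began far apart, and the difference was 3.58 (SE 0.21, adjusted p = 4.9e-10), with both falls lower limits. Acpp, an acid phosphatase, fell by 4.04 in the conventional and by 0.73 in the unconventional clone, a difference of 3.31 (SE 0.15, adjusted p = 1.7e-11). Ifi205, a member of the interferon-inducible p200 family, fell by 3.05 in the conventional clone and had no called change in the unconventional clone (-0.05).

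The largest negative differences were in Osgin1, Gm5486, Rbpj, Dok2, Igsf5, Ccl4, Gadd45g, Hip1, Tmem40 and Hid1. Osgin1, induced by oxidative stress, rose from 5.89, 5.85, 6.09 and 6.13 to 9.52, 9.47, 9.32 and 9.47 in the conventional clone. In the unconventional clone it read 6.44, 6.29, 6.52 and 6.79 without and 7.06, 6.98, 7.07 and 7.17 with the drug, a far smaller rise, and the difference was -2.89 (SE 0.13, adjusted p = 2.2e-11). Rbpj, the DNA-binding partner of Notch, was steady in the conventional clone at 11.64, 11.60, 11.59 and 11.64 and 11.69, 11.77, 11.71 and 11.59. In the unconventional clone it fell from 10.69, 10.67, 10.74 and 10.67 to 8.2, 8.15, 8.37 and 8.32, far outside the spread of the arrays. Its difference was -2.51 (SE 0.09, adjusted p = 1.1e-12), while a second probe set with a mean level of 4.34 gave -0.19. Gm5486, a noncoding RNA, likewise had a second probe set, with a mean level of 3.47, that gave -0.13, and over the mean of their probe sets the differences were -1.35 for Rbpj and -1.48 for Gm5486. The adaptor Dok2, the clathrin-binding Hip1 and the junction protein Igsf5 rose in the conventional clone (2.76, 2.37 and 3.18) and by little or without a call in the unconventional clone (0.28, 0.08 and 0.75).

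Opposite directions were called for 194 genes above background in both clones. Large changes in both clones were seen in Xylt1, which starts the sugar chains of proteoglycans. Its levels were 9.26, 9.22, 9.23 and 9.38 without and 8.11, 7.94, 7.72 and 8.06 with the drug in the conventional clone, and 7.20, 6.81, 6.90 and 6.77 and 8.62, 8.86, 8.81 and 8.44 in the unconventional clone. The gene fell in the former and rose in the latter, and the order of the clones was turned, with a difference of 3.08 (SE 0.15, adjusted p = 5.9e-11). Il7r, the receptor chain for IL-7, was near the same level in both clones without the drug, at 10.92, 10.72, 10.77 and 11.00 and 10.97, 11.00, 10.96 and 10.77. With it the level was 11.56, 11.58, 11.59 and 11.64 in the conventional and 10.25, 10.24, 10.23 and 10.24 in the unconventional clone, so the clones parted, with a difference of -1.42 (SE 0.10, adjusted p = 5.2e-09). Ceacam1 (-1.75 and 0.74), an adhesion and inhibitory receptor, and the ubiquitin ligase Rnf213 (-1.07 and 0.75) behaved like Xylt1. The kinase Tnk2 (0.87 and -1.07), the RNA-binding factor Arid5a (0.74 and -0.66) and the MAP kinase phosphatase Dusp2 (0.96 and -0.63) behaved like Il7r.

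Large effects were shared in part. A change of at least 4-fold in the same direction in both clones was seen for 33 genes that fell and 5 that rose, and 12 and 3 of these had no called difference. Vsir, which encodes the inhibitory receptor VISTA, rose from 8.49, 7.87, 8.08 and 8.40 to 10.88, 10.96, 10.87 and 10.97 in the conventional clone. It rose from 7.12, 6.66, 7.12 and 7.31 to 9.64, 9.69, 9.76 and 9.68 in the unconventional clone. The changes of 2.71 and 2.64 gave a difference of -0.07, with a 95% interval of -0.44 to 0.31. The integrin chain Itgb3 (2.17 and 2.01) and Herc3 (2.77 and 2.45) had no called difference either, with intervals of -0.40 to 0.08 and -0.67 to 0.02. Of the falls, Kynu, an enzyme of tryptophan breakdown (-3.06 and -3.20), Csn1s1, a casein (-3.46 and -3.56), Cxcl3 (-3.25 and -3.35) and Anxa8, an annexin (-2.21 and -2.13), had small differences too. Casp1, a caspase of inflammation, rose in both with a difference of -0.72 (SE 0.22, adjusted p = 0.0317), and it lost the call under 8 other settings, among them without replicate 2 of conventional anti-CD3/CSA (-0.64, adjusted p = 0.0666). Of the genes that moved at least 4-fold in both clones these 8 were chosen for the smallest differences. The intervals give the sizes that the 16 arrays still allow, except where a clone ended at background. Under the drug Cxcl3 was under 6 in the conventional clone (5.46, 5.06, 4.91 and 5.33). Anxa8 was under 6 in the unconventional clone (5.70, 5.52, 5.94 and 5.50). Those falls are lower limits, so the small differences of these genes do not show equal effects.

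Genes near background in 1 clone are given apart, since a clone at background can show no fall and the difference then repeats the effect in the other clone. The conventional clone was near background for 531 of the 1030 genes, of which 188 were called, and the unconventional clone for 499, of which 191 were called. Pfpl, a perforin-like gene, rose in the conventional clone from 4.07, 4.29, 4.17 and 4.41 to 9.87, 9.81, 9.59 and 9.84. It stayed between 3.62 and 4.17 on all 8 unconventional arrays, and the difference of -5.38 (SE 0.16, adjusted p = 4.5e-14) was the largest of the 1030. Ubash3b, a phosphatase that restrains receptor signals, and Hsd11b1, which activates glucocorticoids, also rose in the conventional clone (3.18 and 3.22) and were at background in the unconventional clone.

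Falls in the conventional clone led the positive differences. Tnfsf4, which encodes OX40 ligand, fell there from 7.56, 7.68, 7.39 and 7.59 to 4.03, 4.06, 4.05 and 4.14, and the 8 unconventional arrays lay between 4.08 and 4.70. The difference was 3.38 (SE 0.14, adjusted p = 8.2e-12). Ccl9, a chemokine of CCR1, changed by -4.78 and by -0.95, a difference of 3.83 (SE 0.19, adjusted p = 8.9e-11). Prkcq, the protein kinase C of the T cell synapse, fell by 2.80 in the conventional clone and lay at 3.89 and 3.79 in the unconventional clone.

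In the other direction, Tm4sf1, a tetraspan membrane protein, fell in the unconventional clone from 10.17, 10.64, 10.61 and 10.46 to 5.92, 6.4, 6.61 and 6.41 and lay between 4.64 and 5.26 on all conventional arrays. Its difference was -4.16 (SE 0.20, adjusted p = 5.3e-11). Il17a, an inflammatory cytokine, fell there from 8.18, 8.66, 8.65 and 8.37 to 5.16, 4.84, 4.84 and 5.12, and Il17f and Il3 fell with it (-3.12 and -3.40), all at background in the conventional clone. Mest, an imprinted gene, rose in the unconventional clone from 7.29, 6.92, 6.51 and 6.79 to 10.12, 10.17, 10.06 and 10.51, a difference of 3.26 (SE 0.18, adjusted p = 2.5e-10). Ahr, a receptor for aromatic compounds, and Nt5e, which encodes the ectonucleotidase CD73, rose there as well (1.53 and 1.80).

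**Figure D5:**
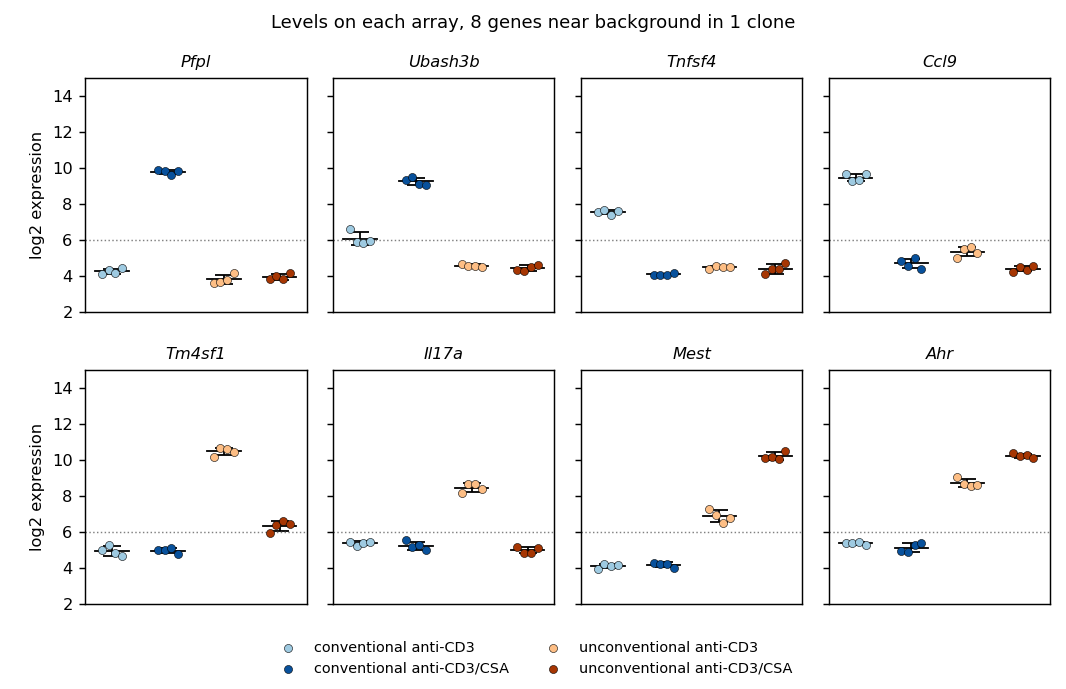
Log2 expression (y axis) on each array for 8 genes near background in 1 clone; points are arrays, the wide line is the group mean, the short lines mark 1 SD either side, and the dotted line is the level of 6. Pfpl, Ubash3b, Tnfsf4 and Ccl9 change in the conventional clone, Tm4sf1, Il17a, Mest and Ahr in the unconventional clone, and the other clone lies at or near background in each panel.

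Markers of other cell types had few called differences. Of 8 B cell markers, Ebf1 was called higher (2.72) and Blk lower (-0.47), but Blk lost its call under 13 of 25 other settings, with an adjusted p of up to 0.1060 when 1 array was left out, replicate 1 of unconventional anti-CD3/CSA. Ebf1 fell in the conventional clone from 7.80 ± 0.13 to 4.93 ± 0.18 (SD, n = 4), while Pax5, Ms4a1 and Cd79b were at background in all groups. Of 14 epithelial and fibroblast markers, 3 were called higher and 0 lower, Lum, Cdh1 (2.07, near background in the conventional clone) and Thy1 (0.34), which T cells also express. The mean level of the 14 lay between 6.44 and 6.54 in conventional cells without and 5.95 and 6.11 with the drug, and between 6.15 and 6.41 in all unconventional arrays. Epcam, Pdgfra and Krt5 were at background, but 4 of the 14 were above background in both clones. Among these was Col1a1, at 6.23 to 6.64 in conventional anti-CD3 and 6.26 to 6.68 in unconventional anti-CD3/CSA. One macrophage and dendritic cell marker, Itgax, an integrin chain also found on T cells, was called lower (-0.57). Of 16 such markers, 2 were above background in both clones. Cd68 was among them, at 6.96 to 7.55 in conventional anti-CD3 and 9.04 to 9.18 in unconventional anti-CD3/CSA, and had no called difference. Of 10 reference genes, Hprt was called (0.45). The part of other cells in these results was not tested.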

How the data were processed

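RNA of 16 samples in 4 groups was hybridised to Affymetrix whole-transcript arrays. The authors deposited log2 expression values per probe set; the submitters' processing notes name GCOS, Partek 6.2 and RMA with no role or order, and the log2 scale was read from the values (2.08 to 14.55). The genome build of the annotation is not given in the sources used here. Of 28853 probe sets, 21789 had 1 gene symbol, 1621 several and 5443 none in the platform annotation. The brightest probe set over all arrays stood for each of 19938 genes (999 had several). Entrez IDs matched the GRCm38.p6 gene table for 99.6%, and 0 symbols changed.

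A mean per group was fitted with limma 3.58.1 in R 4.3.3 (12 residual degrees of freedom, median 18.8 after moderation), with no further normalization. Tests were two-sided and p-values were adjusted by Benjamini-Hochberg over all 19938 genes, with 0.05 as the threshold. The fit was tested on simulated data. The number of arrays limits the precision. A log2 mean of 6 was taken as background.

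Members and lists (24 of pathways, 7 of markers, 625 of 672 genes measured) were chosen with earlier results of these data known. Named were the 10 largest called differences in each direction above background and the 5 largest near background in 1 clone, the 4 strongest of opposite sign and the 4 most alike among shared effects in each direction, up to 4 called members per list, and 14 set genes. Other list members were named after their values were seen, and the Uhrf1 and Mcm7 promoters were chosen for holding the E2F letters. Alternatives were other normalizations, filters, probe set rules, priors, array weights, a replicate block, other background levels, and each array left out.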

Additional observations from a re-analysis of the deposited data

Results flagged for a closer look

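Among 564 groups of 4 arrays of named genes, 35 (6.2%) had an array far from the other 3, where chance gives about 1 in 20, and 34 of the 35 had a range under 1. The log2 level of each such array follows, as the highest or lowest of its group. In conventional anti-CD3 replicate 1, Hid1 (highest, 8.12), Ubash3b (highest, 6.61) and Ebf1 (highest, 7.99) stood apart. In conventional anti-CD3 replicate 2, Il17a (lowest, 5.21) stood apart. In conventional anti-CD3 replicate 4, Ccna2 (lowest, 8.25), Dusp2 (lowest, 7.64) and Fkbp1a (lowest, 10.90) stood apart. In conventional anti-CD3/CSA replicate 1, Il17f (highest, 5.10) and Trib3 (highest, 9.24) stood apart. In conventional anti-CD3/CSA replicate 2, Itgb3 (highest, 10.96) and Casp1 (highest, 9.40) stood apart. In conventional anti-CD3/CSA replicate 3, Dusp2 (lowest, 8.87) stood apart. In conventional anti-CD3/CSA replicate 4, Csn1s1 (highest, 9.19), Cdh1 (highest, 5.21) and Il10 (highest, 7.40) stood apart. In unconventional anti-CD3 replicate 1, Nab1 (highest, 9.73), Ahr (highest, 9.06), Nkg7 (lowest, 12.09), Irf9 (lowest, 7.72) and Tnf (lowest, 9.55) stood apart. In unconventional anti-CD3 replicate 2, Tnfaip3 (lowest, 9.01), Sh2d1a (lowest, 5.33), Ddx58 (highest, 4.75), Cd247 (highest, 9.18) and Blk (highest, 5.82) stood apart. In unconventional anti-CD3 replicate 3, Lef1 (highest, 8.52) stood apart. In unconventional anti-CD3 replicate 4, Trib3 (highest, 7.46) stood apart. In unconventional anti-CD3/CSA replicate 1, Gm5486 (lowest, 5.34), Hid1 (lowest, 7.06), Il17f (highest, 5.20) and Blk (lowest, 4.68) stood apart. In unconventional anti-CD3/CSA replicate 3, Ccna2 (highest, 10.15), Cxcr3 (highest, 6.70) and Dnajb9 (lowest, 9.05) stood apart. In unconventional anti-CD3/CSA replicate 4, AI504432 (lowest, 3.47) stood apart. The widest of these groups was Il10 in conventional anti-CD3/CSA, with a range of 1.03.

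The drug effect differed between the clones, by the test of the difference itself in limma, for 2570 genes above background in both clones, 379 near background in 1 clone and 298 near background in both. Of the genes that moved in opposite directions, Xylt1 (3.08), Rnf213 (1.82), Ceacam1 (2.49) and Ikzf3 (1.55) were higher in the unconventional clone, and Tnk2 (-1.94), Il7r (-1.42), Arid5a (-1.40) and Dusp2 (-1.59) lower.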

How the results depend on the processing

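No called difference of a named gene changed sign under any of the 25 settings. Differences that were not called and lay near 0 did, with ranges of -0.20 to 0.05 for Vsir, -0.07 to 0.32 for Anxa8, -0.21 to 0.01 for Cxcl3, -0.09 to 0.03 for Nfatc1 and -0.04 to 0.07 for Ppia. The number of called differences over all genes lay between 2757 (each array centred on its median) and 3554 (array weights), against 3247, and between 2931 and 3386 when 1 array was left out. Median centring moved the median difference of all genes to -0.05 and the share of higher calls from 52.2% to 43.1% (1188 higher, 1569 lower), and without replicate 1 of conventional anti-CD3 lower calls were also the more frequent (1571 higher, 1614 lower). Testing only genes with a mean over 6 left 196 called genes near background in 1 clone (106 higher, 90 lower) against 379, 2687 genes called lower in the unconventional clone without the drug and 2988 with it, since fewer genes were tested. A background level of 5 gave 251 genes near background in 1 clone, 128 of them higher. Of 775 list counts, 21 moved by over 1.5 times.

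Of 141 named genes, 133 kept their call under all 25 settings. The others were Casp1, Nab1, Blk, Fkbp1a (median centring, adjusted p = 0.1147), Thy1 (median centring, adjusted p = 0.0751), Herc3, Il2 and Tnf; the cause was not tested. With the replicate number as a block 3229 genes were called, and of the named genes the call changed for Herc3 (adjusted p = 0.0422) and Il2 (adjusted p = 0.0493). Deviations of 24 same-numbered pairs correlated at -0.137 to 0.284, 3 of them over 0.1, and 7 of 16 arrays correlated best with their own number. These values do not settle whether the number pairs the arrays, and the main fit did not pair them. Single genes did share a pattern across the groups: Bnip3, chosen after its values were seen, was highest in replicate 4 and lowest in replicate 2 in each of the 4 groups (11.80, 10.97, 11.27 and 11.98 and 10.87, 9.40, 9.88 and 11.21 in the conventional clone without and with the drug, 11.17, 10.69, 10.99 and 11.48 and 10.45, 9.86, 10.28 and 11.02 in the unconventional clone). Car9 and Ccng2 were also highest in replicate 4 in each group, and Ctla4 was lowest in replicate 2 in each. Whether same-numbered arrays shared a culture or batch was not tested.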
